A study of Mus musculus with 11 samples.

Results

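A set of 8 cartilage genes other than collagens was followed in developing molars: the transcription factor genes *Sox9*, *Sox5* and *Sox6*, and *Acan*, *Matn1*, *Hapln1*, *Lect1* and *Comp*, which encode secreted or matrix proteins. They were taken by symbol as known cartilage genes, and all 8 of 8 symbols were among the 16755 genes measured (*Lect1* is the symbol listed for *Cnmd*). Maxillary molar tooth germs were dissected at E14.5, and their RNA was read in 11 libraries, 4 from wild-type (*Cilk1*+/+), 4 from *Cilk1*-/- and 3 from *Cilk1*-/-;PCS1-MRCS1△/△ littermate embryos, here called compound mutants, with n = 6 per biological replicate. *Cilk1* encodes a kinase of the primary cilium, and *Cilk1*-/- mice had exon 6 deleted in the germ line through EIIa-Cre. The compound mutants carried the same *Cilk1* deletion and lacked in addition 70 kb that hold oral enhancers of *Shh*. The question was how the additional loss of these enhancers changes the *Cilk1*-/- molar. The deposited values are logarithms, read here as log2(value + 1) of a normalized expression value although 257 genes have some value below 0, and "turned back" means taken off this scale.

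In cartilage, SOX9 starts the chondrocyte program, and SOX5 and SOX6 act with it to switch on the genes of the cartilage matrix. Aggrecan (*Acan*) is the large chondroitin sulfate proteoglycan that holds water in the matrix, link protein (*Hapln1*) fixes it to hyaluronan, and matrilin-1 (*Matn1*), cartilage oligomeric matrix protein (*Comp*) and chondromodulin (*Lect1*, an inhibitor of vessel growth) belong to the same tissue. A tooth germ consists of dental epithelium and dental mesenchyme and holds no cartilage, which forms nearby in the nasal capsule and the cranial base.

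Most of the 8 genes were highest in the same library. In compound mutant replicate 1, 7 of 8 genes had their highest value of all 11 libraries, and *Lect1*, *Matn1* and *Acan* stood there more than 3 log2 units above every other library. Compound mutant replicate 3 showed a smaller excess of *Hapln1*, *Acan*, *Sox9* and *Sox5*. None of the 8 genes passed the test in any of the 3 comparisons between genotypes, and in wild-type and *Cilk1*-/- molars their values overlapped.

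The libraries differed in other ways that touch these genes. *Cilk1* (listed as *Ick*) lay between 3.45 and 3.60 in wild-type libraries, between 2.72 and 2.86 in *Cilk1*-/- libraries and between 2.60 and 2.67 in compound mutants. It was lower in both mutants (limma, adjusted p = 0.000224 and 6.22e-05 against wild type), whose labels name the knockout but no RNA level. On the first principal component of all genes (41.6% of the variance), compound mutant replicate 1 lay at 48.5 and the other 10 libraries between −11.2 and 6.63. On the second (21.8%), compound mutant replicate 3 lay at 28.9, beyond the others. Dental markers were present in every library (*Krt14* at 6.83 or more, *Barx1* at 6.66 or more), and compound mutant replicate 1 had the lowest summed level of dental mesenchyme and of dental epithelium genes. Results that rest on that library are therefore given with and without it.

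Promoters are shown for *Lect1*, *Matn1*, *Acan* and *Hapln1*, matrix genes that were highest in compound mutant replicate 1. *Comp*, also highest there, had no promoter entry. Beside them is 1 promoter of *Sox6*, the gene that did not follow them. The sequences are those of RefSeq (GRCm38.p6), 250 bases before the start, 5′ to 3′ on the strand of the gene. Capitals mark the letters AACAAT or ACAAAG, which SOX proteins are known to bind, on either strand.

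Lect1 (Cnmd) chr14:79662184-79662433 (-): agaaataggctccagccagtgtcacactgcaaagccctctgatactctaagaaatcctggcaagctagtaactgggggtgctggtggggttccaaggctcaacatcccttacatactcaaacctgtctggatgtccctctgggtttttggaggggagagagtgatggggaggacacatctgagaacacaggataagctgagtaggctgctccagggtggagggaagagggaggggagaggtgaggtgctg
Matn1 chr4:130944135-130944384 (+): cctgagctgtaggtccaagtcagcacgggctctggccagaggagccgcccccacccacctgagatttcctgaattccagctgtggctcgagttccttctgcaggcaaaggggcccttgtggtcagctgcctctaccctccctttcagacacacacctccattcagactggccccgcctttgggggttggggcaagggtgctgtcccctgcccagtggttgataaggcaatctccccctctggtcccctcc
Acan chr7:79052976-79053225 (+): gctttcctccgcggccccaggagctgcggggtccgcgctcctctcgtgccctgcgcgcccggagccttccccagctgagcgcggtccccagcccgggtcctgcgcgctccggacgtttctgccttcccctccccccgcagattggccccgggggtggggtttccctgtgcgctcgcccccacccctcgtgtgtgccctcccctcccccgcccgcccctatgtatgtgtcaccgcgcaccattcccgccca
Hapln1 chr13:89540386-89540635 (+): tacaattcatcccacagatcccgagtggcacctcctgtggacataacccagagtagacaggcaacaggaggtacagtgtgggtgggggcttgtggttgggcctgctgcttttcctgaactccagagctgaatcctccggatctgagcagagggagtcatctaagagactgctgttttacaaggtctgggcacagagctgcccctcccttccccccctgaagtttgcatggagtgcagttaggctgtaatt
Sox6 chr7:115824711-115824960 (-): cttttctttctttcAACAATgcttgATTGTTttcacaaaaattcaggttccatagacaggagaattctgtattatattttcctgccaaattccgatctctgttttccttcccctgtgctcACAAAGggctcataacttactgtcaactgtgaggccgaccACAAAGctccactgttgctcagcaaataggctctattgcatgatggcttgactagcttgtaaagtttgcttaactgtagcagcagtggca

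Of the 8 genes, 6 had promoter entries, 11 in all (*Sox9* and *Comp* had none). One or both of these motifs were in 5 of the 11 (45.5%), against 24% of 32851 promoters of the same length, and all 5 were promoters of *Sox6*, which has 6 entries. In the promoter shown for *Sox6* each motif occurred 2 times, which made it the entry of this gene with the most motifs. It belongs to a start within the annotated gene. The *Sox6* entry nearest the annotated gene start (chr7:116038745-116038994) held 1 motif. The promoters of *Lect1*, *Matn1*, *Acan*, *Hapln1* and *Sox5* held neither, which says only that these letters are not in this window. Their GC content differed, from 39.6% in *Sox5* to 74.4% in *Acan*.

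*Sox9* lies at chr11:112782224-112787760 on the plus strand (GENCODE vM21, GRCm38). Its log2 values were 3.34, 3.72, 3.61 and 3.48 in wild-type replicates 1 to 4 and 3.76, 3.30, 3.45 and 3.43 in *Cilk1*-/- replicates 1 to 4. In the compound mutants they were 5.01, 3.36 and 4.16 for replicates 1 to 3. Replicates 1 and 3 of the compound mutant were above all others, whereas replicate 2 lay within both other genotypes, so the groups overlapped. The compound mutant mean was 4.18 ± 0.82 (SD, n = 3), against 3.54 ± 0.16 (n = 4) in wild type, a log2 difference of 0.64 ± 0.29 (SE; limma, adjusted p = 0.196).

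*Sox5*, at chr6:143828425-144781977 on the minus strand, had values of 1.60, 1.60, 1.83 and 1.46 in wild type and 1.62, 1.58, 1.36 and 1.65 in *Cilk1*-/-. The compound mutants had 3.0, 1.69 and 2.19. The order of the 3 compound mutant libraries was that of *Sox9*, and all of them lay above the *Cilk1*-/- libraries (replicate 2 by little), while wild-type replicate 3 overlapped with them. The log2 difference was 0.67 ± 0.24 against wild type (SE; limma, adjusted p = 0.114) and 0.74 ± 0.24 against *Cilk1*-/- (adjusted p = 0.108).

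*Sox6*, at chr7:115470872-116038796 on the minus strand, did not share this pattern. Its values were 2.71, 3.04, 2.65 and 3.03 in wild type, 3.26, 2.82, 3.18 and 2.76 in *Cilk1*-/- and 3.0, 2.88 and 2.18 in the compound mutants. Compound mutant replicate 1 was within the other genotypes, and the lowest value of all 11 libraries was in compound mutant replicate 3. The log2 difference to wild type was −0.17 ± 0.20 (SE; limma, adjusted p = 0.612), and its sign rested on that library, since it was 0.08 without it.

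Among the matrix genes, *Acan* (chr7:79053483-79115099, plus strand) was near 0 in wild type, at 0.05, 0.52, 0.35 and 0.00. It was 0.83, 0.42, 0.64 and 0.54 in *Cilk1*-/- and 5.03, 0.70 and 1.60 in the compound mutants. Every compound mutant library lay above every wild-type library, whereas compound mutant replicate 2 overlapped with *Cilk1*-/-. Turned back, compound mutant replicate 1 reached 31.7, 15.6 times the next library, which was compound mutant replicate 3 at 2.04. The log2 difference to wild type was 2.21 ± 0.77 (SE; limma, adjusted p = 0.108). It depended on the pseudocount, being 4.0 with 0.1 in place of 1, when it was called (adjusted p = 0.0461).

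*Hapln1*, whose product links aggrecan to hyaluronan, lies at chr13:89539796-89611652 on the plus strand. Its values were 1.63, 1.97, 2.09 and 1.34 in wild type, 2.26, 1.93, 1.89 and 2.34 in *Cilk1*-/- and 5.12, 1.54 and 3.83 in the compound mutants. It was the gene of the 8 with the largest excess in compound mutant replicate 3, which lay 1.49 log2 units above the 9 libraries other than it and replicate 1, rank 9 of 16755 genes by this measure. Compound mutant replicate 2 lay under most wild-type libraries, so the groups overlapped, and the log2 difference to wild type was 1.74 ± 0.63 (SE; limma, adjusted p = 0.116).

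*Matn1* (chr4:130944385-130955475, plus strand) was −0.21, 0.47, 0.40 and 0.14 in wild type, 0.91, 0.29, 0.32 and 0.12 in *Cilk1*-/- and 4.66, 0.54 and 0.51 in the compound mutants. The value below 0 turns back to −0.13, which no count can give, so a further adjustment of the deposited values is possible and values this close to 0 carry little weight. Compound mutant replicate 1 stood apart from the other 10 libraries, of which none reached 1 log2 unit. Turned back, it was 27.6 times the next library, *Cilk1*-/- replicate 1. Replicates 2 and 3 were barely above the highest wild-type library, and the log2 difference to wild type was 1.70 ± 0.82 (SE; limma, adjusted p = 0.21).

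*Lect1* (*Cnmd*, chr14:79637690-79662170, minus strand) was the member with the highest level in compound mutant replicate 1, where it ranked 699 of 16755 genes, against ranks of 11171 to 13602 elsewhere. Its values were 0.93, 0.95, 0.98 and 0.70 in wild type, 1.32, 1.20, 1.17 and 0.92 in *Cilk1*-/- and 6.20, 1.71 and 1.94 in the compound mutants. All 3 compound mutant libraries lay above all 8 others, and turned back the first was 25.5 times the second highest. The log2 difference was 2.39 ± 0.85 against wild type (SE; limma, adjusted p = 0.113) and 2.13 ± 0.85 against *Cilk1*-/- (adjusted p = 0.171).

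*Comp*, at chr8:70373558-70382066 on the plus strand, was 0.28, 0.29, 0.47 and 0.16 in wild type, 0.41, 0.47, 0.27 and 0.41 in *Cilk1*-/- and 2.18, 0.36 and 0.44 in the compound mutants. Only compound mutant replicate 1 left the range of the other libraries, at 3.54 turned back and 9.2 times the next. The log2 difference to wild type was 0.70 ± 0.35 (SE; limma, adjusted p = 0.226).

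**Figure D1:**
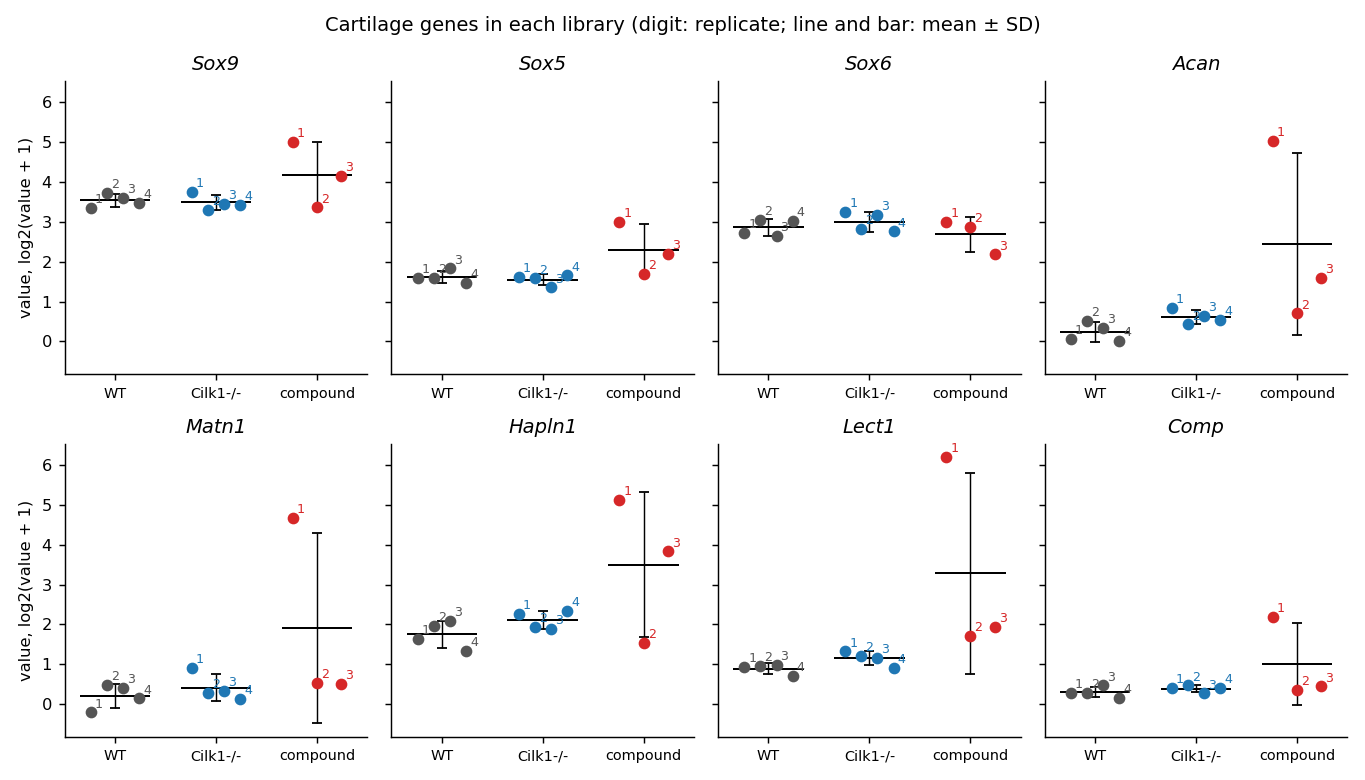
Log2 values of the 8 genes in each library by genotype (4 wild-type, 4 Cilk1-/- and 3 compound mutant libraries), with the replicate number beside each point and a line and bar for the mean ± SD. Compound mutant replicate 1 is the highest point in every panel but that of Sox6, with Lect1 at 6.20, Hapln1 at 5.12, Acan at 5.03 and Sox9 at 5.01, and replicate 2 lies at or near the other genotypes.

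*Cilk1*-/- and wild-type molars were compared first. None of the 8 genes was called (adjusted p under 0.05 with a change of 1.5-fold or more), where 0.155% of all genes were called higher and 0.215% lower. None had an unadjusted p under 0.05 with that fold change either (0.412% of all genes, higher). The log2 differences ran from −0.07 for *Sox5* to 0.38 for *Acan* (SE between 0.19 and 0.78), with adjusted p between 0.719 and 0.946. Their median was 0.18, and that of all genes 0.00. In 0 of 8 genes did all *Cilk1*-/- libraries lie above all wild-type libraries (10.2% of all genes), and the smallest exact two-sided permutation p was 0.0571, for *Acan*, with 0.0286 the smallest that 4 against 4 libraries can give.

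The standard errors above come from a spread that all 3 genotypes share, so compound mutant replicate 1 widened them. Without it, the error of *Lect1* fell from 0.78 to 0.10 and that of *Acan* from 0.71 to 0.19. The *Cilk1*-/- minus wild-type difference of *Lect1* stayed at 0.26 (adjusted p = 0.143) and that of *Acan* at 0.38 (adjusted p = 0.243), and in a fit of these genotypes alone the adjusted p was 0.0904 for *Lect1* and 0.0693 for *Acan* (limma). Libraries of wild type and *Cilk1*-/- that share a replicate number were not independent in the deposited values: over all genes, their deviations from the genotype mean had correlations of −0.74, −0.89, −0.85 and −0.79. The fit takes all libraries as independent, so its p-values for this comparison may be too small. Protocol texts in the labels split the libraries into 2 sets, with replicates 1 to 3 of wild type and *Cilk1*-/- in the first. Within it, the 8 differences lay between −0.16 (*Sox5*) and 0.32 (*Acan*). The second set holds 1 library of each of these genotypes, replicate 4, and differed from the first, with a difference of 1.0 for *Hapln1* (0.13 in the first set), −0.27 for *Sox6* (0.28) and 0.19 for *Sox5*, values without a test.

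Between compound mutants and wild type, 7 of 8 differences were above 0, and none of the 8 genes was called, where 0.615% of all genes were called higher and 0.633% lower. At an unadjusted p under 0.05 with the same fold change, 4 were higher (*Sox5*, *Acan*, *Hapln1* and *Lect1*), against 2.04% of all genes. In 3 genes (*Acan*, *Matn1* and *Lect1*) all compound mutant libraries were above all wild-type libraries, against 8.92% of all genes. The exact two-sided permutation p of these 3 was 0.0571, the smallest that 3 against 4 libraries can give, so this test cannot reach 0.05. The median difference was 1.20 over the 8 genes and 0.00 over all genes.

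Compound mutants and *Cilk1*-/- molars gave much the same picture for these genes, with the same compound mutant libraries in both comparisons. None of the 8 was called (0.155% of all genes higher, 0.388% lower), and 5 had an unadjusted p under 0.05 with the fold change (*Sox9*, *Sox5*, *Acan*, *Hapln1* and *Lect1*), against 1.12% of all genes. All compound mutant libraries lay above all *Cilk1*-/- libraries in 2 genes, *Sox5* and *Lect1* (7.74% of all genes). The largest differences were 2.13 ± 0.85 for *Lect1* and 1.84 ± 0.77 for *Acan* (SE; limma, adjusted p = 0.171 and 0.19), and the median over the 8 genes was 1.07.

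Leaving out compound mutant replicate 1 made the differences to both other genotypes smaller for all of the 8 genes but *Sox6*, which went to −0.33 ± 0.21 against wild type. *Lect1* was then called higher in the compound mutant, by 0.94 ± 0.12 against wild type (SE; limma, adjusted p = 0.00642) and by 0.68 ± 0.12 against *Cilk1*-/- (adjusted p = 0.026), as the only one of the 8. All genes called higher were 0.430% and 0.143%. The difference of *Acan* to wild type was 0.92 ± 0.23 (adjusted p = 0.0507), that of *Hapln1* 0.93 ± 0.49 (adjusted p = 0.293), and those of *Matn1* and *Comp* 0.32 ± 0.22 and 0.10 ± 0.08. The median over the 8 genes fell from 1.20 to 0.32 against wild type and from 1.07 to 0.33 against *Cilk1*-/-.

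The opposite happened without compound mutant replicate 2, in which 6 of the 8 genes (not *Sox6* and *Matn1*) were lowest among the compound mutants. *Sox9*, *Sox5*, *Acan*, *Hapln1* and *Lect1* were then called higher against wild type (5 of 8, where 2.84% of all genes were), and all of these but *Lect1* against *Cilk1*-/- (4 of 8, where 1.34% were). *Hapln1* had the smallest adjusted p of these, 0.00144 against wild type, with a difference of 2.72 ± 0.33 (limma). No member was called without compound mutant replicate 3. All 3 compound mutant libraries were in the second label set, with replicate 4 of wild type and of *Cilk1*-/-. Within that set, compound mutants exceeded the single wild-type library by 2.58 (*Lect1*), 2.44 (*Acan*), 2.16 (*Hapln1*) and 1.76 (*Matn1*), and without replicate 1 by 1.12, 1.15, 1.35 and 0.38, values without a test.

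**Figure D2:**
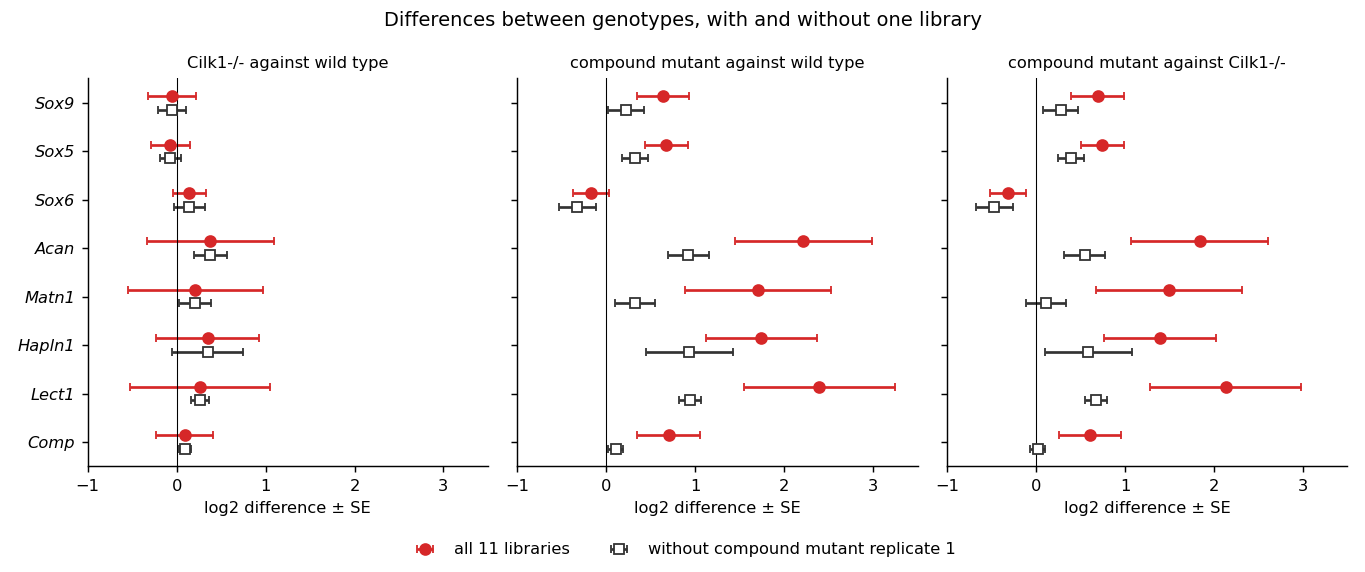
Log2 differences ± SE (limma) of the 8 genes in the 3 comparisons, with all 11 libraries (filled circles) and without compound mutant replicate 1 (open squares). For compound mutants against wild type, Lect1 moves from 2.39 to 0.94 and Matn1 from 1.70 to 0.32 when that library is left out. The bars of all genes but Sox6 shorten in the comparisons with compound mutants, and those of all 8 genes in the comparison of Cilk1-/- with wild type.

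The excess in compound mutant replicate 1 was read gene by gene, as its log2 value minus the highest of the other 10 libraries. It was 4.26 for *Lect1*, rank 3 of 16755 genes, 3.75 for *Matn1* (rank 6) and 3.43 for *Acan* (rank 10). *Comp* followed with 1.71 (rank 90) and *Hapln1* with 1.29 (rank 182), and the regulators *Sox9* and *Sox5* had 0.85 and 0.81 (ranks 359 and 397). *Sox6* had −0.26. Thus 5 of 8 genes exceeded every other library by at least 1 log2 unit, as did 1.61% of all genes, and 7 of 8 were highest in this library, as were 22.9% of all genes.

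In compound mutant replicate 3 a different part of the 8 genes was raised. Leaving replicate 1 aside, it was above the remaining 9 libraries for *Hapln1* (by 1.49), *Acan* (0.77), *Sox9* (0.40), *Sox5* (0.36) and *Lect1* (0.23), 5 of 8 genes against 19.5% of all genes. *Matn1* and *Comp* lay within those libraries, and *Sox6* was 1.07 under the highest of them. Summed over the 8 genes and turned back, the level was 19.8 to 26.4 in wild type and 21.9 to 30.5 in *Cilk1*-/-, and 211, 23.4 and 42.9 in compound mutant replicates 1 to 3. Different genes carried this sum. In wild type, *Sox9* made up 46.1% to 47.4% of it and *Sox6* 21.9% to 33.4%. In compound mutant replicate 1 their shares were 14.8% and 3.31%, and *Lect1* had the largest, 34.3%.

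**Figure D3:**
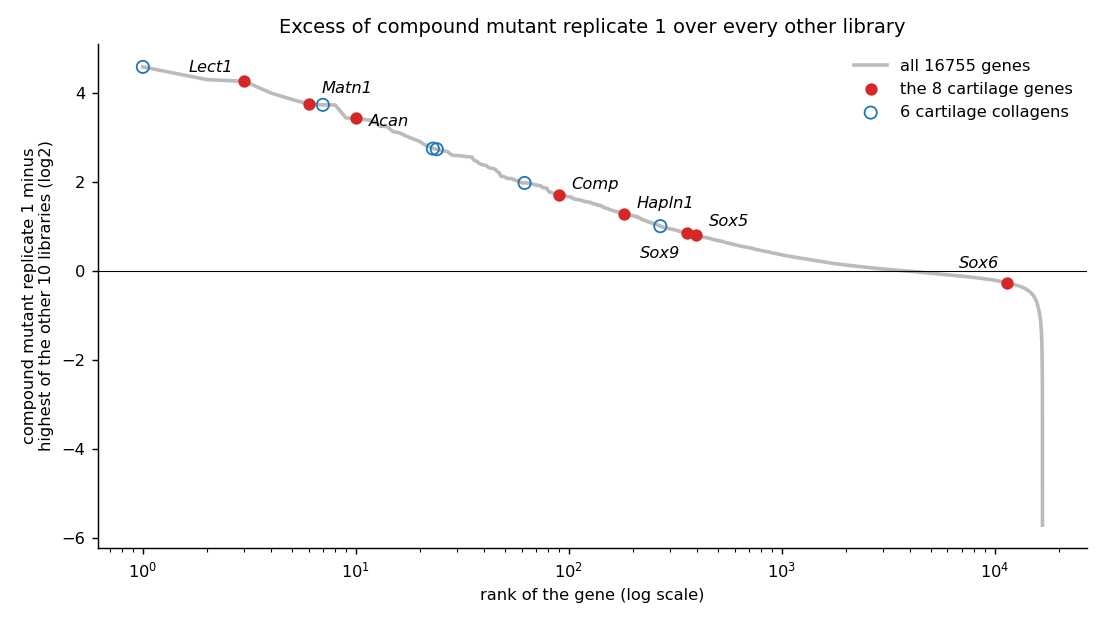
For each of 16755 genes, the log2 value in compound mutant replicate 1 minus the highest of the other 10 libraries, ordered by rank on a log scale (gray line), with the 8 genes as filled points and 6 cartilage collagens as open circles. Lect1, Matn1 and Acan are at ranks 3, 6 and 10, Sox9 and Sox5 at ranks 359 and 397 are still above 0, and Sox6 is below 0.

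Collagens of cartilage followed the 8 genes in compound mutant replicate 1. Of 7 such genes 6 were listed (*Col10a1*, of hypertrophic cartilage, was not). In compound mutant replicate 1, 6 of 6 were highest, as were 22.9% of all genes. *Col9a1* was there 4.58 log2 units above every other library, rank 1 of all genes, at 6.83. *Col2a1*, the main collagen of cartilage, was 8.62 in this library and between 3.44 and 4.88 in the others. Unlike most of the 8 genes, *Col2a1* and *Col11a2* were higher in compound mutant replicate 2 (4.88 and 4.61) than in replicate 3 (3.82 and 2.54). The other listed collagens were higher in replicate 3. Turned back, the 6 collagens summed to 988 in compound mutant replicate 1, 116 and 105 in replicates 2 and 3, 83.9 to 95.8 in wild type and 86.9 to 102 in *Cilk1*-/-. None of the 6 was called in the 3 comparisons. Without compound mutant replicate 1, *Col9a1* was called higher in compound mutants than in wild type, by 0.996 ± 0.19 (SE; limma, adjusted p = 0.0237).

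Other cartilage genes listed were 29 (11 of the matrix, 8 of chondroitin sulfate synthesis and 10 of chondrocyte signaling and transcription). Those called are named here. Of all genes, 0.155% were called higher in *Cilk1*-/- than in wild type. In compound mutants it was 0.615% against wild type and 0.155% against *Cilk1*-/-. *Fmod* (fibromodulin) was higher in *Cilk1*-/- than in wild type, by 1.02 ± 0.18 (SE; limma, adjusted p = 0.0245), a call that ended with the replicate number as a block (adjusted p = 0.14) and without wild-type or *Cilk1*-/- replicate 2, 3 or 4. In compound mutants, *Matn4* (matrilin-4) rose by 1.35 ± 0.35 and *Fgfr3*, a receptor that restrains chondrocyte growth, by 0.77 ± 0.19 against wild type (adjusted p = 0.0485 and 0.0434), and none was called against *Cilk1*-/-. Both calls were near the threshold and ended with the block (adjusted p = 0.166 and 0.163), without compound mutant replicate 1 (0.122 and 0.0865) and without any single wild-type library. *Matn4* and *Fgfr3* were also higher in all *Cilk1*-/- than in all wild-type libraries, with differences of 1.12 and 0.55 that did not pass (adjusted p = 0.0937 and 0.124). Without compound mutant replicate 1, *Epyc* (epiphycan) was called besides *Fmod* in *Cilk1*-/- against wild type, by 0.62 ± 0.11 (limma, adjusted p = 0.015; 0.251% of all genes were then called higher), and *Cytl1* in compound mutants against wild type, by 0.73 ± 0.16 (adjusted p = 0.0317).

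These genes were split in compound mutant replicate 1. Of the 11 matrix genes, 7 were highest there (22.9% of all genes). *Cytl1* and *Matn3* had excesses of 4.30 and 3.44 (ranks 2 and 9), while *Matn4* (−0.01), *Cilp* (−0.80), *Fmod* (−0.88) and *Ucma* (−1.10) were under the highest other library. Of the 10 genes of chondrocyte signaling and transcription 2 were highest there, *Fgfr3* and *Wwp2*, and *Runx2* (−0.82), *Pthlh* (−1.30) and *Barx2* (−1.41) were among the others. The 8 genes of chondroitin sulfate synthesis, which build the sugar chains of aggrecan, summed to 88.9 there and to 65.9 to 72.4 in the other libraries, and *Papss2* had the largest excess of them, 1.53.

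Most relatives of the 8 genes did not share their excess. Of 14 relatives listed, 3 were highest in compound mutant replicate 1: *Sox10* (2.92), *Sox13* (3.79) and *Ncan* (0.60). This compares with 7 of the 8 genes and 22.9% of all genes. *Sox10* and *Sox13* lay 0.76 and 0.62 log2 units above every other library, near *Sox9* and *Sox5* (0.85 and 0.81). *Vcan*, the versican of loose connective tissue and a relative of *Acan*, was lowest there, at 6.24 against 6.71 to 7.26. *Tnmd*, the tendon relative of *Lect1*, was lowest there as well, at 1.66 against 2.10 to 3.76, and *Thbs4*, a relative of *Comp* known from tendon, was at 1.78 against 1.82 to 5.02. *Hapln3*, like *Hapln1*, was high in compound mutant replicate 3, at 2.37 against 0.88 to 1.64 in the remaining libraries. *Thbs1* was the only relative called, higher in *Cilk1*-/- than in wild type by 0.61 ± 0.08 (SE; limma, adjusted p = 0.0096, or 0.0846 with the replicate number as a block).

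Markers of other cell types moved in the same library. In compound mutant replicate 1, neuron genes were 7.0 times the wild-type median (summed, turned back, 10 genes), genes of ciliated epithelium 5.24 times (6 genes), of olfactory neurons 3.14 times (8 genes) and of Schwann cells and glia 2.28 times (7 genes). Of these, 9 of 10, 6 of 6, 6 of 8 and 7 of 7 were highest there, as were 22.9% of all genes. *Foxj1*, the regulator of motile cilia, was 3.71 in it and at most 1.41 elsewhere, and *Lhx2*, a factor of olfactory neurons, 4.94 and at most 0.94. *Stoml3* and *Ncam2* of the olfactory list (0.82 and 1.09) lay within the range of the other libraries. Dental mesenchyme genes summed to 423 against 629 to 816 in the other libraries, with 8 of 10 lowest there, and dental epithelium genes to 531 against 805 to 1286, with 7 of 9 lowest. The epithelium list was split, however: *Epcam* was highest there, at 6.36 against 5.28 to 5.85, and *Cdh1* (4.95) lay within the range of the others. *Msx2* and *Pax9* of the mesenchyme list (3.60 and 5.33) also lay within that range. The sum of osteoblast genes was lowest in this library too, at 101 against 139 to 326, with 3 of 8 genes lowest, as was that of skeletal muscle genes, at 7.04 against 8.23 to 52.5, with 5 of 9 lowest. The share of all genes lowest in this library was not counted, so these counts of lowest genes stand without that comparison. Erythroid, macrophage and endothelium genes were at 0.93, 1.13 and 1.13 times the wild-type median in it. In compound mutant replicate 3, neuron genes reached 2.45 times the wild-type median and erythroid genes 0.33 times. The part of these cell types in the level of the 8 genes was not tested, and in bulk RNA more cells of a type and more RNA per cell cannot be told apart.

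**Figure D4:**
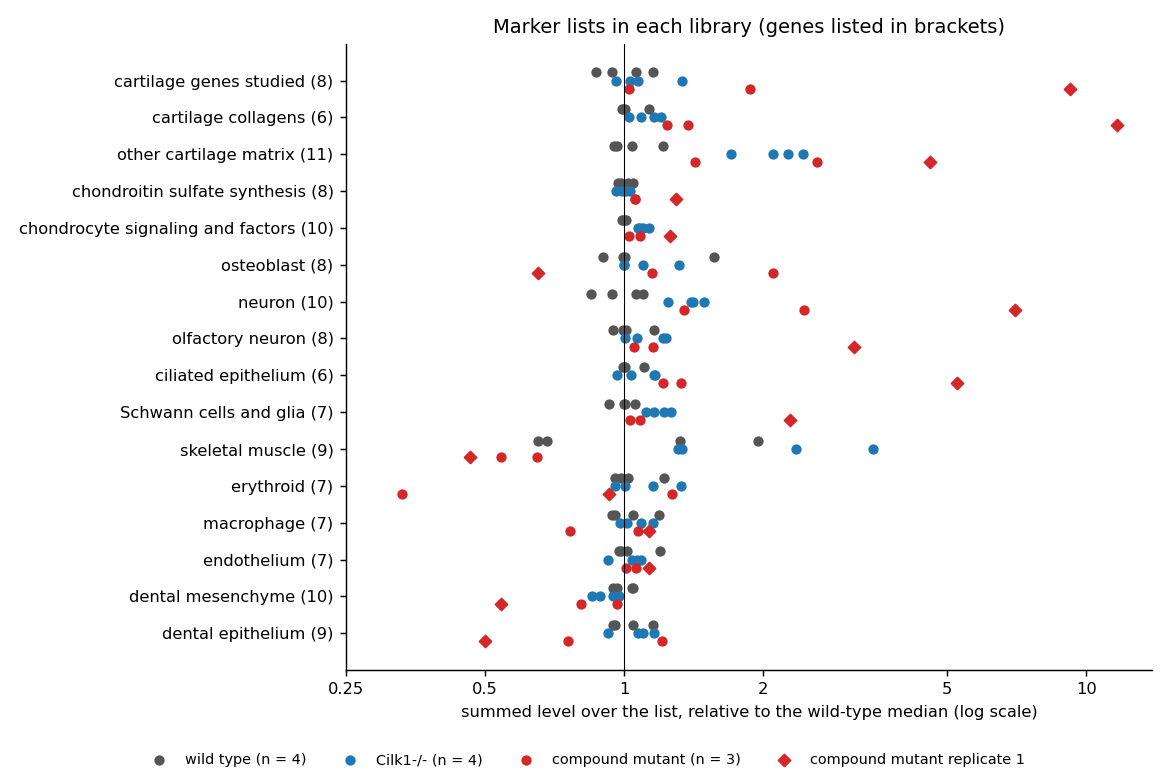
Summed levels (turned back from log2) of 16 gene lists in each library, divided by the wild-type median, on a log scale; the number of genes is in brackets and compound mutant replicate 1 is drawn as a diamond. In that library the 8 cartilage genes are at 9.23, cartilage collagens at 11.6 and neuron genes at 7.0 times the wild-type median, and dental mesenchyme and dental epithelium at 0.54 and 0.50 times.

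The 8 genes varied together mainly through that library. Over 11 libraries, the Pearson correlation of their 28 pairs had a median of 0.913 and a range from −0.265 to 0.988, and without compound mutant replicate 1 the median was 0.52 and the range −0.857 to 0.876. In the 8 wild-type and *Cilk1*-/- libraries alone the median was 0.5. These are descriptions over libraries of which 1 or 2 carry most of the spread.

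The genes most like the mean of the 8 over 11 libraries, among 13023 with a mean value of at least 1, were *Col9a3* (r = 0.994), *Rap1gap2*, *Sarm1*, *Homer2*, *Hid1*, *Misp*, *Wwp2*, *Col9a1*, *Atf5* and *Cpxm2* (r = 0.985). Without compound mutant replicate 1 they were *Corin* (r = 0.962), *Sorbs2*, *Phyh*, *Pcdhb5*, *2610018G03Rik*, *Bag2*, *Id3*, *Alg14*, *Col9a3* and *Gnpda2* (r = 0.92), so *Col9a3* was in both lists. Of single genes, *Lect1* was nearest to *Atf5* (r = 0.996), *Matn1* to *Wwp2* (0.993), *Acan* to *Sarm1* (0.992), *Sox5* to *Ccdc17* (0.992) and *Comp* to *Thsd7b* (0.99). *Hapln1* was nearest to *Dlx6* (0.986), *Sox9* to *Ldhb* (0.984) and *Sox6* to *Prkg1* (0.971).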

How the data were processed

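Total RNA of maxillary molar tooth germs was sequenced after poly-T selection. According to the labels and the study's methods, reads were mapped to mm10 with HISAT2 2.0.5 and counted per gene with featureCounts 1.5.0-p3, from which FPKM was derived. The deposited table holds log2 values of 16755 genes in 11 libraries, read here as log2(value + 1), where the value was normalized and is most likely FPKM. The step the authors took from FPKM to log2 is not given in the sources used here. Turned back, the values summed to 339970 to 364615 per library, 257 genes had a value below 0, and the depth is unknown, so precision rests on the spread between libraries, which may be technical in part. The log2(value + 1) scale understates changes of low genes.

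The plan allowed for a count test, but the values are logarithms, so limma 3.58.1 (R 4.3.3; lmFit, eBayes with trend and robust) was fitted to all genes and libraries over 3 genotypes, without covariates or a filter, with Benjamini-Hochberg adjustment. Calls required an adjusted p under 0.05 with a change of 1.5-fold or more. The fit was tested on simulated data. Single values were also compared by exact two-sided permutation. The members and gene lists were chosen with earlier results of these data known. Named besides the members were the label check, collagens, relatives, genes called and the genes most correlated with the members, and single other markers were named after their values were seen. Alternatives were a replicate block, the label set as a term, other eBayes settings, a pseudocount of 0.1, median centring, quantile normalization, a filter at a mean of 1, fewer genotypes, other thresholds and each library left out. Positions are those of GENCODE vM21.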

Additional observations from a re-analysis of the deposited data

How the results depend on the processing

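In no comparison did the replicate block, the label set as a term, the filter, eBayes without trend and robust or the fit of the compared genotypes alone call any of the 8 genes. The filter kept 5 of 8 (not *Acan*, *Matn1* and *Comp*). The block is no part of the calls, since the study's methods name none. Wild-type and *Cilk1*-/- numbers showed no positive pairing, which does not settle whether a block is needed. Same-numbered libraries of these genotypes deviated in opposite directions, however, and were not independent. Without the block, p-values of *Cilk1*-/- against wild type may therefore be too small. With the replicate number as a block, the adjusted p of *Lect1* against wild type went from 0.113 to 0.229, and the other cartilage genes called (collagens included) went from 1 to 0 (*Cilk1*-/- against wild type) and from 2 to 0 (compound mutant against wild type), also 0 and 0 with the label set as a term and with compound mutants blocked with pair 4 (an alternative added after seeing the data). With a pseudocount of 0.1, 1 member (*Acan*, adjusted p = 0.0461) was called against wild type (3.26% of all genes), and the median difference of *Cilk1*-/- to wild type went from 0.18 to 0.40. By unadjusted p, 0, 4 and 5 members and 3, 13 and 6 of 35 other cartilage genes passed, in the order in which the comparisons were described (0.752%, 2.98% and 2.09% of all genes), and without a minimum fold change 3 and 2 other cartilage genes in the first and last (2.44% and 3.33% of all genes). The fit of the compared genotypes alone called 5 and 0 other cartilage genes in the first and second comparison (0.776% and 0.203% of all genes), and eBayes without trend and robust 1 in the second (1.18%). Leaving out single libraries gave 0 to 5 members called in the second and 0 to 4 in the last comparison, and 0 to 3, 0 to 8 and 0 to 3 other cartilage genes, where 0.0895% to 0.567%, 0.477% to 4.0% and 0.215% to 2.15% of all genes were called. Without single libraries, the difference of *Sox9* in the first comparison ran from −0.14 to 0.011 (above 0 without wild-type or *Cilk1*-/- replicate 2), and that of *Sox6* in the second from −0.33 to 0.080 (above 0 without compound mutant replicate 3). With compound mutant replicates 1 and 3 both left out, an alternative added after seeing the data, 1 member was called against wild type (*Lect1*), with 5 and 2 other cartilage genes in the first and last comparison (0.776% and 1.7% of all genes). The sole compound mutant library is then assumed to vary like the others. Signs turned for *Sox9* (−0.18), *Sox6* (0.022) and *Hapln1* (−0.21) against wild type and for *Sox9* (−0.12), *Hapln1* (−0.56) and *Comp* (−0.024) against *Cilk1*-/-. The causes were not tested. With median centring and quantile normalization, 7 of 8 genes were highest in compound mutant replicate 1. A pseudocount of 0.1 keeps the order of the libraries within a gene, so it could not change this count.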
